A study of Homo sapiens with 8 samples.

Results

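The subunit genes of RNA polymerases I, II and III were examined in K562 and KBM5, 2 established human cell lines from chronic myeloid leukaemia. They were taken by a rule on names, as every symbol in the probe annotation that begins with POLR1, POLR2 or POLR3 followed by a letter, which gave 30 of 17687 named genes. Each line was given 4 treatments with 1 array each, 8 arrays in all. The control received no drug. The OR21 group had 100 nM OR21 for 3 days, the IM group had 1000 nM imatinib for 24 hours, and the combination had the OR21 course followed by IM. OR21 is called a demethylating agent in the series title, and imatinib inhibits BCR-ABL1, the fusion kinase that drives these cells. The label of the combination gives no OR21 dose, which was read from the treatment protocol. The study asked which expression changes mark the combination. No group had a second array, so no p-value below rests on repeats of a treatment within a line. In tests for each line, the pairs with and without OR21 stood in for repeats. Their residual spread is any departure from summed OR21 and IM effects in log2 units, and cannot be told from array noise. It was pooled over both lines in 1 model, so a p-value for either line rests partly on the other line. With an array of a line left out, the residual came from the other line alone. In tests over both lines, the residual spread holds any difference between the lines in their response to treatment. Precision is limited by how few arrays there are.

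RNA polymerase I transcribes the large ribosomal RNA precursor, polymerase II makes messenger RNA, and polymerase III makes transfer RNA, 5S ribosomal RNA and other short RNAs. Each enzyme has a pair of large catalytic subunits of its own, a set of smaller subunits of its own, and small subunits that it shares with the other two. Polymerases I and III feed the ribosome and protein synthesis and are known to follow growth signalling and MYC, whereas polymerase II serves all protein-coding genes.

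By enzyme, the 30 genes were 6 particular to polymerase I, 7 to polymerase II and 9 to polymerase III, 2 shared by I and III, 4 shared by all, and 2 relatives of POLR2J. Of these, 29 are protein coding and POLR2J4 is a transcribed pseudogene. Values are linear intensities per probe set, and differences are log2 of intensity with IM minus log2 without. Background on an array was the level that 95% of its negative control probe sets did not pass, between 161 and 263. Above it on all 8 arrays were 17 of the 30 genes, 12 were above it on some arrays, and POLR3F on none. By mean level all 30 lay above the median of the named genes, a set called the brighter genes below. The lines held to their labels in part: the 4 measured erythroid markers were above background on all K562 arrays and on no KBM5 array. Of 6 measured myeloid markers, 5 were at background on all K562 arrays (MPO, CSF3R, CEBPA, CEBPE and AZU1). In KBM5, 3 of the 6 were above it on all 4 arrays and 0 were at background on all 4. All 4 lymphoid markers were at background in K562, and 3 of 4 in KBM5, while 2 of 3 epithelial markers were above it in K562.

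IM lowered most polymerase I and III genes in both lines and left those for the catalytic subunits of polymerase II without a call. Of the 30 genes, 18 were lower in 4 of 4 IM array pairs, or 60% against 15.1% of all named genes and 25.3% of the brighter genes. In K562, 16 fell and 2 rose, where 8.05% of all genes were called lower and 5.34% higher. In KBM5, 17 fell and 4 rose, against 10.6% and 10.8% of all genes. Called in both lines were 15 genes, of which 13 fell in both and POLR3GL and POLR2J4 rose in both. Among those that fell, POLR1B and POLR1G were at background on all KBM5 arrays, with and without IM. Over both lines together, 14 fell and 2 rose, against 4.87% and 2.75% of all genes. Among the brighter genes fitted alone, 18.5% were called lower and 10.9% higher in K562, 21.9% lower and 20.5% higher in KBM5, and 11.1% lower and 6.22% higher in both lines together. Calls were made with limma at an adjusted p under 0.05, from a model with an OR21 and an IM term for each line, or, for both lines together, from a model of line plus treatment. In bulk RNA, fewer cells of a type and less RNA per cell cannot be told apart, and the scaling of the deposited intensities is not stated.

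The enzymes ranked differently by median. In K562 the median log2 difference with IM was -1.70 for the 6 polymerase I genes, -1.21 for the 9 of polymerase III and -0.40 for the 7 of polymerase II, beside 0.07 for all genes. The polymerase II median there was -0.20 after quantile normalization and -0.62 over all subunits of the enzyme. In KBM5 the medians were -1.36, -1.02 and -0.88, beside 0.03 for all genes. The polymerase II median in KBM5 rests on 1 array pair: it was -1.01 without the KBM5 OR21 or combination array and -0.06 without the KBM5 control or IM array. It was 0.21 over the members above background on all 8 arrays, so its direction is not settled. The polymerase III median in KBM5 was -0.43 over such members, which were only POLR3A, POLR3C and POLR3D. These are descriptions of the lists, without a test between the enzymes.

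**Figure D1:**
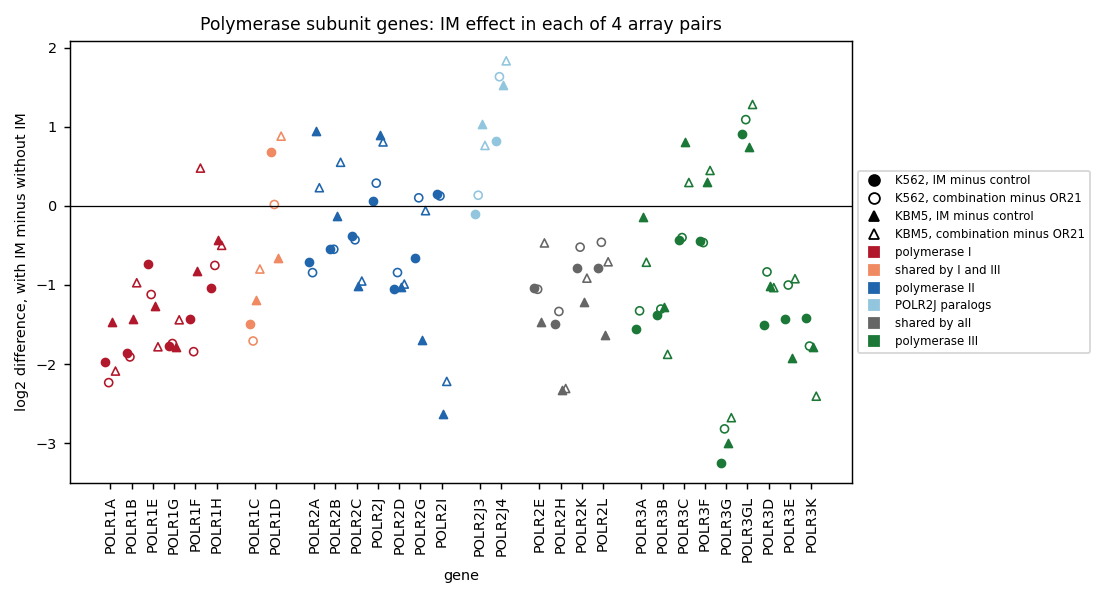
Log2 difference in intensity with IM minus without IM (vertical axis) for each of the 30 genes (horizontal axis), coloured by enzyme, with circles for the K562 pairs and triangles for the KBM5 pairs. Filled symbols are IM minus control and open symbols combination minus OR21. POLR3G lies lowest in every pair, and POLR2J4 and POLR3GL lie above 0 in every pair.

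Both catalytic subunit genes of polymerase I were called lower in both lines, but in KBM5 only POLR1A was above background. POLR1A, the largest subunit, read 2867 in the K562 control, 3189 with OR21, 727 with IM and 677 with the combination. In KBM5 it read 3637, 5375, 1311 and 1263 in the same order. All 4 arrays with IM lay below all 4 without it, the log2 differences were -2.11 ± 0.25 (SE) in K562 and -1.78 ± 0.25 in KBM5, and limma's adjusted p was 0.000513 and 0.00062. POLR1B, the other catalytic subunit, read 169 and 180 without IM and 46.5 and 47.8 with IM in K562. It was called lower in K562 (-1.88 ± 0.24) and in KBM5 (-1.20 ± 0.24), but it was at background with IM in K562 and on all KBM5 arrays, so no fold is given.

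The remaining subunits of polymerase I form a dimer, a stalk and a cleavage subunit. POLR1E and POLR1G encode the dimer of PAF53 and PAF49, which resembles a general factor of polymerase II. POLR1E read 1982 and 2542 without IM and 1189 and 1169 with IM in K562, and 752, 559, 312 and 162 in KBM5 in the order control, OR21, IM and combination. The groups did not overlap within a line, and its differences were -0.93 ± 0.25 and -1.53 ± 0.25, the latter not an exact size because 1 of 2 arrays with IM was at background. POLR1G was at or near background throughout, between 43.0 and 52.7 on the arrays with IM and between 143 and 162 on those without, and was called lower in both lines with no fold given. POLR1F, the stalk subunit that contacts the initiation factor RRN3, read 351 and 588 without IM and 131 and 164 with it in K562, at least 2.47-fold lower. In KBM5 it read 868, 946, 491 and 1318, so the array of the combination lay above all others and the groups overlapped (-0.17 ± 0.31, not called). POLR1H, the zinc-ribbon subunit used in RNA cleavage, read 1929, 1725, 938 and 1024 in K562 (-0.90 ± 0.23, called). It read 1132, 1627, 837 and 1152 in KBM5 (-0.47 ± 0.23, not called).

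Promoter windows were read for 21 of the 30 genes to see whether those that moved together share an E-box, the letters CACGTG bound by MYC and by several other factors, which read the same on both strands. Of the 26 windows of 250 bases before a RefSeq start (GRCh38.p14) in these genes, 3 held it, those of POLR1G, POLR3A and POLR3C, while 6.35% of 35116 such windows over all genes did. POLR1G fell in both lines, POLR3A fell in K562, and POLR3C, which has another window without it, was not called in either. The windows of POLR1A, POLR1B, POLR1C, POLR2D, POLR2E, POLR2H, POLR3E, POLR3B and POLR3K, all of which fell in both lines, did not hold these letters. The last 100 bases before the start of the genes that fell are shown because they place the E-box close to the start, with its letters in capitals, at chr19:45406544-45406643 (plus strand) and chr10:78029516-78029615 (minus strand). The E-box begins 12 bases before the start in POLR1G and 35 bases before it in POLR3A.
POLR1G: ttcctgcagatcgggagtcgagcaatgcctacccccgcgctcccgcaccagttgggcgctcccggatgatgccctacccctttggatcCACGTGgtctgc
POLR3A: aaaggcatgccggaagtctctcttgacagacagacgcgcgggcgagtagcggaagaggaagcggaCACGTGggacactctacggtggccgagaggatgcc
The same 26 windows of 250 bases were also read for motifs of ETS factors, FOXO and NRF1. The ETS motif was in 6 windows, of POLR1B, POLR1C, POLR2C, POLR3A and POLR3C, beside 8.52% of all windows. POLR1B and POLR1C fell in both lines, POLR3A in K562 and POLR2C in KBM5, and POLR3C was not called. The FOXO motif was in 1 (POLR2C), beside 2.98%, and that of NRF1 in 2 (POLR2H and POLR3B), beside 1.03%. None of these shares was tested. A match in such a window is a description of letters and shows no binding.

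Subunits that serve more than one enzyme also fell. POLR1C, part of the assembly platform of polymerases I and III, read 5392, 7247, 1918 and 2217 in K562 and 3412, 2715, 1497 and 1562 in KBM5, in the order control, OR21, IM and combination. The arrays with IM were lower in each line, with log2 differences of -1.60 ± 0.24 and -0.99 ± 0.24. Its partner POLR1D was not called: it read 1711, 1772, 2751 and 1794 in K562 and 1292, 1095, 815 and 2020 in KBM5, with both arrays with IM above the others in K562 and 1 on each side of them in KBM5.

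The 4 measured subunits common to all polymerases were lower in 4 of 4 pairs. POLR2H moved most in KBM5 and read 2669, 2914, 946 and 1155 in K562 and 1845, 1857, 368 and 374 in KBM5. Its difference was -1.42 ± 0.23 in K562 (adjusted p = 0.00288, limma) and -2.32 ± 0.23 in KBM5 (adjusted p = 7.4e-05), with no overlap between arrays with and without IM. POLR2E, another common subunit, read 10773, 11382, 5252 and 5479 in K562 and 7796, 6397, 2823 and 4624 in KBM5 and fell in both (-1.05 ± 0.28 and -0.97 ± 0.28). The KBM5 call was lost with any K562 array, the KBM5 control or the KBM5 IM array left out (-1.47 to -0.47 over all arrays left out). That in K562 was lost with any K562 array left out and after quantile normalization. POLR2K and POLR2L, the small zinc-binding subunits, were called in KBM5 (-1.06 ± 0.24 and -1.17 ± 0.28). In K562 their values were -0.66 ± 0.24 and -0.62 ± 0.28, without a call. POLR2K read 4529, 6438, 1951 and 3418 in KBM5, and POLR2L read 972, 1667, 313 and 1022, where the combination overlapped the control.

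Polymerase II changed in its smaller subunits and not in a common direction. POLR2A, which carries the repeat tail phosphorylated during transcription, read 4221 and 5197 without IM and 2592 and 2895 with it in K562, but 4223 and 5752 without IM and 8153 and 6750 with it in KBM5. The arrays with IM were thus the lower ones in K562 and the higher ones in KBM5, and neither line's own difference was called (-0.77 ± 0.26 and 0.59 ± 0.26). POLR2B, the other catalytic subunit, read between 4547 and 6805 on K562 arrays and between 4400 and 6453 on KBM5 arrays, with -0.55 ± 0.25 and 0.21 ± 0.25 and no call. POLR2D, of the stalk, was the only gene of this group called in both lines, reading 3005, 2788, 1449 and 1554 in K562 and 2245, 2365, 1107 and 1192 in KBM5 (-0.95 ± 0.23 and -1.004 ± 0.23). Its stalk partner POLR2G was not called in either line (-0.28 ± 0.36 and -0.88 ± 0.36).

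Further polymerase II genes were called in KBM5 and not in K562, in both directions, and of these the difference between the lines was called for POLR2I. POLR2I, a zinc-ribbon subunit that contributes to transcription fidelity, read 439 and 529 without IM and 71.1 and 114 with it, at least 2.29-fold lower and at background with IM (adjusted p = 6.8e-05, limma). In K562 it read 399, 367, 442 and 401. POLR2C, the assembly platform of the enzyme, read 1863, 2079, 925 and 1076 in KBM5 (-0.98 ± 0.23) and 4409, 4511, 3394 and 3352 in K562, lower with IM in both lines and not called in K562 (-0.40 ± 0.23). Its partner POLR2J went the other way, reading 27409, 33909, 50908 and 59445 in KBM5 (0.85 ± 0.23), a call that was lost with any of the 8 arrays left out (0.81 to 0.89) and with a term added for OR21 given with IM. The near-copy POLR2J3 read 9011, 10999, 18504 and 18697 in KBM5 (0.90 ± 0.24), and the pseudogene POLR2J4 read 76.3, 98.3, 220 and 351, at least 1.25-fold higher and above background on 1 of 2 arrays with IM. In K562, POLR2J and POLR2J3 had 0.18 ± 0.23 and 0.02 ± 0.24 and no call, while POLR2J4 rose at least 1.03-fold, above background on 1 of 2 arrays with IM. POLR2J and its relatives are near-identical in sequence, so their probe sets may share signal.

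Of the 9 polymerase III genes, 6 fell and 1 rose in K562, and 5 fell and 1 rose in KBM5. Of all genes, 8.05% were called lower and 5.34% higher in K562, and 10.6% and 10.8% in KBM5. Among the brighter genes fitted alone the shares were 18.5% and 10.9% in K562, and 21.9% and 20.5% in KBM5. The alternative polymerase III subunit genes POLR3G and POLR3GL moved in opposite directions in each line. POLR3G and POLR3GL encode interchangeable members of the trimer that the enzyme uses for initiation: POLR3G is the form known from stem cells and dividing tumour cells, POLR3GL that of most differentiated cells. POLR3G read 1740 and 1324 without IM and 183 and 187 with it in K562. In KBM5 it read 395 and 296 without and 49.4 and 46.3 with IM. The arrays with IM were all below those without, with a log2 difference of -3.04 ± 0.24 in K562 (adjusted p = 6.4e-05, limma), where 1 of 2 arrays with IM was above background. In KBM5 it was at least 1.62-fold lower and ended at background (adjusted p = 3.1e-05). POLR3GL rose. It read 246 and 211 without IM and 461 and 450 with it in K562, and 122, 168, 203 and 409 in KBM5 in the order control, OR21, IM and combination. Within each line the arrays with IM were higher, by 1.00 ± 0.25 in K562 (adjusted p = 0.0228) and at least 1.29-fold in KBM5 (adjusted p = 0.0136), where the combination was above background and IM was not. The POLR3GL call in K562 was lost with any K562 array left out (0.91 to 1.09 over all arrays left out), and that in KBM5 without the KBM5 OR21 or combination array (0.74 to 1.28). Both were lost with a term added for OR21 given with IM, and the call over both lines was lost with any of the 8 arrays left out, with trended robust moderation and with log2(value + 16). The summed intensity of the 4 erythroid markers in K562 moved with these genes, from 18286 to 38103 without IM to 101150 to 142424 with it. That of 6 myeloid markers in KBM5 went from 28904 to 57420 without IM to 69718 to 108460. That of the 3 stromal and endothelial markers in KBM5 went from 197 to 220 without IM to 634 to 701, with COL1A1 and VWF at background on all its arrays. The part of these markers in the result was not tested.

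**Figure D2:**
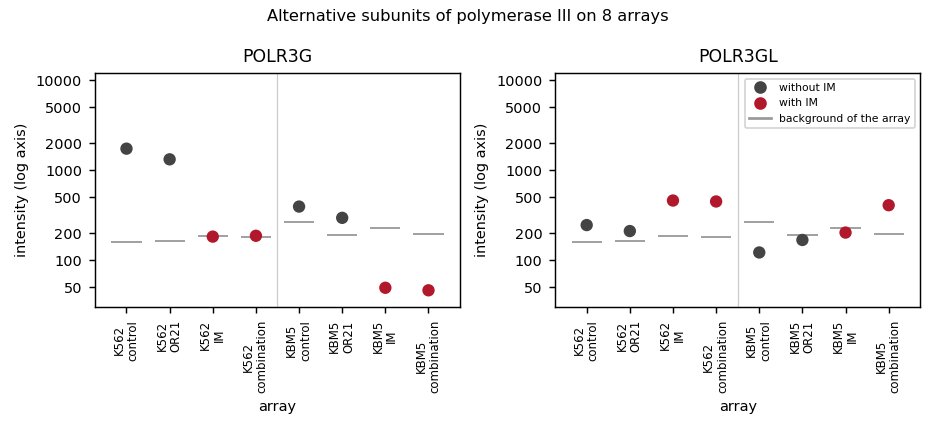
Intensity on a log axis (vertical) of POLR3G and POLR3GL on each of the 8 arrays (horizontal), without IM in grey and with IM in red, with the background of each array as a bar. POLR3G drops from 1740 to 183 between K562 control and IM, while POLR3GL goes from 246 to 461.

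The other polymerase III genes were mostly lower. POLR3K, the small subunit used in termination and RNA cleavage, read 1753, 1903, 656 and 557 in K562 and 775, 627, 224 and 118 in KBM5. Its log2 difference was -1.60 ± 0.25 in K562 and it was at least 3.31-fold lower in KBM5, with no overlap in either line. POLR3D and POLR3E form a dimer that resembles a general factor of polymerase II. POLR3D read 983, 918, 345 and 515 in K562 and 1590, 1311, 791 and 640 in KBM5 (-1.17 ± 0.25 and -1.02 ± 0.25). POLR3E read 729, 795, 271 and 397 in K562 (-1.21 ± 0.28) and 378, 329, 99.9 and 174 in KBM5, at least 1.67-fold lower. The arrays with IM were below the others in each line for both genes.

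The catalytic subunits of polymerase III fell together in K562. POLR3A, the largest, read 786, 917, 267 and 365 in K562 (-1.44 ± 0.25, adjusted p = 0.00392, limma) and 357, 323, 323 and 197 in KBM5, where it was not called (-0.43 ± 0.25). POLR3B, the other catalytic subunit, read 739, 623, 285 and 252 in K562 (-1.34 ± 0.25) and 313, 452, 129 and 123 in KBM5, at least 1.78-fold lower. POLR3C, of the initiation trimer, read 1781, 2148, 1318 and 1628 in K562 and 1856, 2058, 3250 and 2528 in KBM5, and was not called in either line. POLR3F, the last member of the trimer, was at background on all 8 arrays.

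Set side by side, the largest subunits of the enzymes answered IM differently in KBM5. POLR1A was called lower in both lines, POLR3A in K562, and POLR2A in neither. The differences were -2.11 ± 0.25, -1.44 ± 0.25 and -0.77 ± 0.26 in K562 and -1.78 ± 0.25, -0.43 ± 0.25 and 0.59 ± 0.26 in KBM5 for POLR1A, POLR3A and POLR2A. The SE are those of the fits, and the differences between these genes were not tested.

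**Figure D3:**
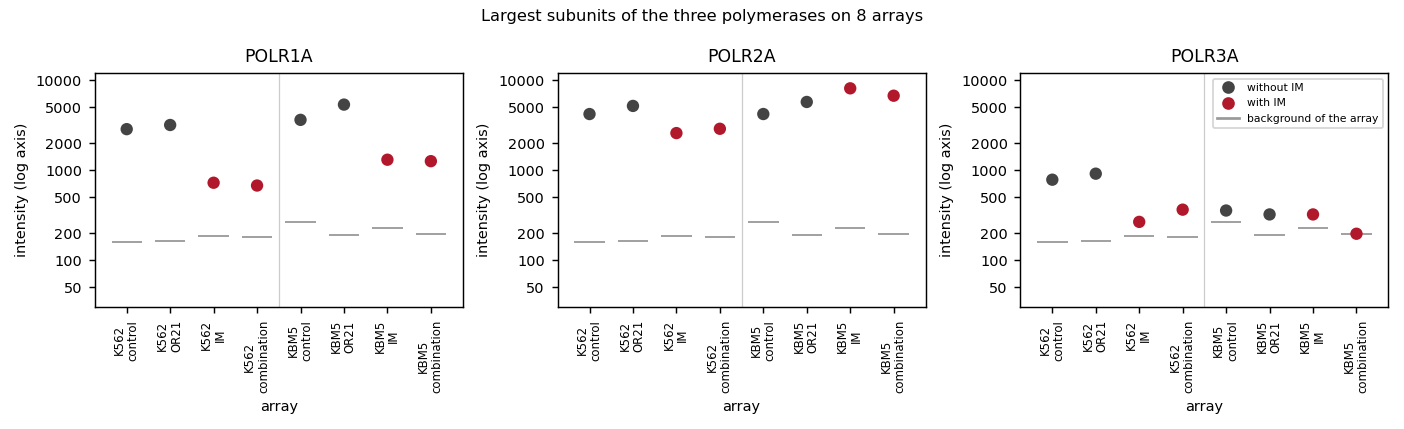
Intensity on a log axis (vertical) of the largest subunit genes POLR1A, POLR2A and POLR3A on each of the 8 arrays (horizontal), without IM in grey and with IM in red, with the background of each array as a bar. POLR1A is lower with IM in both lines, and POLR2A is lower with IM in K562 and higher with IM in KBM5.

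The size of the IM effect was also compared between the lines. Of the 30 genes, 1 was called higher and 1 lower in limma, K562 minus KBM5, against 4.9% and 5.25% of all genes. POLR2I differed by 2.56 ± 0.34 on the log2 scale (adjusted p = 0.0013), a size that is not exact because it was at background with IM in KBM5. POLR2A differed by -1.36 ± 0.36 (adjusted p = 0.0393), and this call was lost when any K562 array, the KBM5 control or the KBM5 IM array was left out (values from -1.72 to -1.005 over all arrays left out). It was also lost after quantile normalization (-1.30). The difference of POLR3G was -0.20 ± 0.34 and that of POLR3GL -0.01 ± 0.35, neither called. For both genes the KBM5 side includes arrays at background, so these values do not show that the lines respond alike. POLR1F had -1.46 ± 0.44 and POLR3A -1.01 ± 0.35, with adjusted p = 0.0648 and 0.103 in limma.

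**Figure D4:**
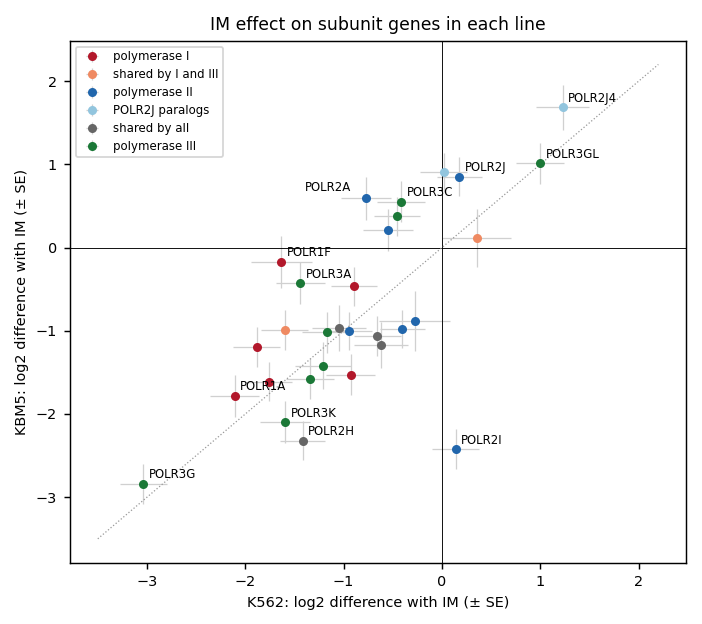
Log2 difference with IM in K562 (horizontal) against KBM5 (vertical) for the 30 genes, coloured by enzyme, with bars for the SE and a dotted line of equality. POLR3G is lowest in both lines, and POLR2I is near 0 in K562 and low in KBM5. In KBM5 both were at background with IM, so their vertical positions are not exact sizes.

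These calls depended on single arrays. The 18 calls in K562 became 6 where its control or IM array was left out and 4 where its OR21 or combination array was, and POLR1A, POLR1B, POLR1G and POLR3G kept theirs with each array left out. With a term added for OR21 given with IM, 13 of the 18 remained, all lower, so both K562 rises were lost. The 21 calls in KBM5 became 10 without the KBM5 control or IM array. There, POLR1A, POLR1E, POLR1G, POLR2I, POLR2J4, POLR2H, POLR3B, POLR3G and POLR3K kept theirs with each array left out. The 16 calls over both lines became 9 when K562 control was dropped, 8 with K562 IM dropped, and 5 with either other K562 array dropped. Dropping KBM5 control gave 6, KBM5 IM 3, and either other KBM5 array 4. POLR1A, POLR1G and POLR3G kept their calls in each of these.

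The lines also differed in the level of subunit genes, averaged over matched treatments. Of the 30, 10 were higher in K562 and 4 in KBM5, where 17% and 15% of all genes were called. Among the brighter genes fitted alone the shares were larger: 2596 of 8843 were called higher in K562 and 2105 in KBM5. POLR2L was higher in K562 by 2.61 ± 0.32 on the log2 scale, with 4009 to 6891 on the K562 arrays and 313 to 1667 on those of KBM5. POLR3G was higher in K562 by 2.05 ± 0.16 and POLR1E by 2.09 ± 0.26, sizes that are not exact because some arrays were at background. POLR1F, POLR1A, POLR3D and POLR2K were higher in KBM5, with K562 minus KBM5 at -1.73 ± 0.37 for POLR1F, above background on 2 of 4 K562 arrays, and -0.71 ± 0.18 for POLR1A. POLR2C was higher in K562 by 1.47 ± 0.20. Limma's adjusted p for the 14 genes was 0.0484 or lower. Calls between the lines over all named genes also became fewer with any array left out. With 1 array left out the 14 calls became 8 to 10: 8 without either combination array, 9 without either IM or either OR21 array and 10 without either control.

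OR21 changed none of the 30 genes by the test. Limma called 0 in both lines together, in K562 and in KBM5, where 0%, 0.0905% and 0.486% of all genes were called higher and 0%, 0% and 0.0565% lower, and 1, 0 and 7 of the 30 had an unadjusted p under 0.05, beside 3.52%, 4.88% and 12.6% of all genes. The largest value in KBM5 was that of POLR2L, 1.24 ± 0.28 (adjusted p = 0.0981), which was called when the KBM5 control or KBM5 OR21 array was left out. It read 972 in the control and 1667 with OR21, and 313 with IM and 1022 with the combination. In the KBM5 pair of combination and IM, 5 of the 30 were at least 2-fold higher with the combination and 0 lower, where 3.92% and 3.01% of all genes were. They were POLR2L (3.27-fold), POLR1F (2.68-fold), POLR1D (2.48-fold), and POLR2G and POLR3GL, both from a level at background and so without a fold. In K562 that pair had 0 such genes in either direction, with 1.02% of all genes higher and 0.82% lower. OR21 against control also had 0, with 1.36% of all genes higher and 0.622% lower in K562, and 2.36% and 1.76% in KBM5. Each is a single pair of arrays without a test.

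Combination and control were compared to show what both drugs did together. POLR3G was the only one of the 30 called, at -3.15 ± 0.23 on the log2 scale (adjusted p = 0.0334, limma), where 0.136% of all genes were called lower and 0.0622% higher. It was above background on 1 of 2 arrays with the combination, so the size is not exact. The call was lost with any array left out (values from -3.21 to -3.10), where calls over all genes also became fewer. With an unadjusted p under 0.05 there were 16 of 30, beside 15.9% of all genes. This comparison shares its arrays with those of IM above.

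The genes that load, help or build the polymerases were taken from 6 lists of 85 genes, of which 79 were measured. In K562, 15 of the 79 fell and 0 rose, with a median of -0.44, where 8.05% of all genes were called lower and 5.34% higher. In KBM5, 18 fell and 3 rose, with a median of -0.12, where 10.6% and 10.8% were. Among the brighter genes fitted alone, 18.5% were called lower and 10.9% higher in K562, and 21.9% and 20.5% in KBM5. The 79 were not limited to the brighter genes. No list was tested as a whole. The median of all genes was 0.07 and 0.03 in these comparisons.

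For polymerase I, 3 of 7 initiation and termination genes fell in K562 and 0 in KBM5, beside 8.05% and 10.6% of all genes. RRN3, which recruits polymerase I to its promoter and responds to growth signals, had -1.32 ± 0.23 in K562 and differed between the lines by -1.96 ± 0.33 (adjusted p = 0.00448, limma). TAF1A, of the promoter selectivity factor, was at least 1.14-fold lower in K562, and TBP, the TATA-binding protein, had -0.82 ± 0.24. For polymerase III, 2 of 18 initiation and control genes fell in K562, beside 8.05% of all genes. They were SNAPC5 (-1.21 ± 0.25) and CRCP (-1.002 ± 0.25), a subunit of the enzyme named outside the POLR series. Both differed between the lines, K562 minus KBM5, by -1.32 ± 0.35 and -1.65 ± 0.35 (adjusted p = 0.0397 and 0.0139, limma). In KBM5, 5 of 18 fell, among them SSB (-1.62 ± 0.24), which binds the ends of new polymerase III transcripts, GTF3C5 (-1.38 ± 0.24) and GTF3A (-1.11 ± 0.24), which is needed for 5S ribosomal RNA.

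For polymerase II, 4 of 18 general factors fell in K562, led by GTF2A2 (-1.07 ± 0.24), GTF2E2 (-0.92 ± 0.24) and GTF2F2 (-0.85 ± 0.23). The other was TBP, which is on the polymerase I list as well and was counted there too. In KBM5, 1 of 18 fell, GTF2H3 (-1.26 ± 0.26). Of all genes, 8.05% were called lower in K562 and 10.6% in KBM5. Of 19 pausing and elongation genes 0 were called in K562, and in KBM5 2 rose and 3 fell, beside 10.8% and 10.6% of all genes. HEXIM1, which holds the elongation kinase P-TEFb inactive, rose by 1.66 ± 0.28 and differed between the lines by -1.79 ± 0.39, K562 minus KBM5 (adjusted p = 0.0158, limma). SUPT6H, an elongation factor, rose by 1.20 ± 0.29, and LEO1, of the PAF1 complex, had -1.41 ± 0.25.

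Of 14 assembly and import genes, 5 fell in K562, and 6 fell and 1 rose in KBM5, while the others were not called. With IM, 8.05% of all genes were called lower in K562, and 10.6% lower and 10.8% higher in KBM5. Among the brighter genes fitted alone, 18.5% were called lower in K562, and 21.9% lower and 20.5% higher in KBM5. RUVBL1 and RUVBL2, ATPases of the R2TP chaperone complex, had -1.78 ± 0.28 and -1.60 ± 0.25 in K562. RUVBL2 had -2.09 ± 0.25 in KBM5, where RUVBL1 had -2.28 ± 0.28 with 1 of 2 arrays with IM above background. GPN3, a GTPase needed for the nuclear import of polymerase II, had -1.31 ± 0.29 in K562 and was at least 2.54-fold lower in KBM5. Of the 4 mitochondrial transcription genes 2 fell in K562 and 3 in KBM5, including TFAM (-1.60 ± 0.27 and -2.06 ± 0.27) and TFB2M (-2.09 ± 0.24 and -1.37 ± 0.24), while POLRMT, the mitochondrial polymerase, was at least 1.43-fold lower in KBM5. With OR21, 0 of the 79 were called in K562 and 1 rose in KBM5, where 0.0905% and 0.486% of all genes were called higher.

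**Figure D5:**
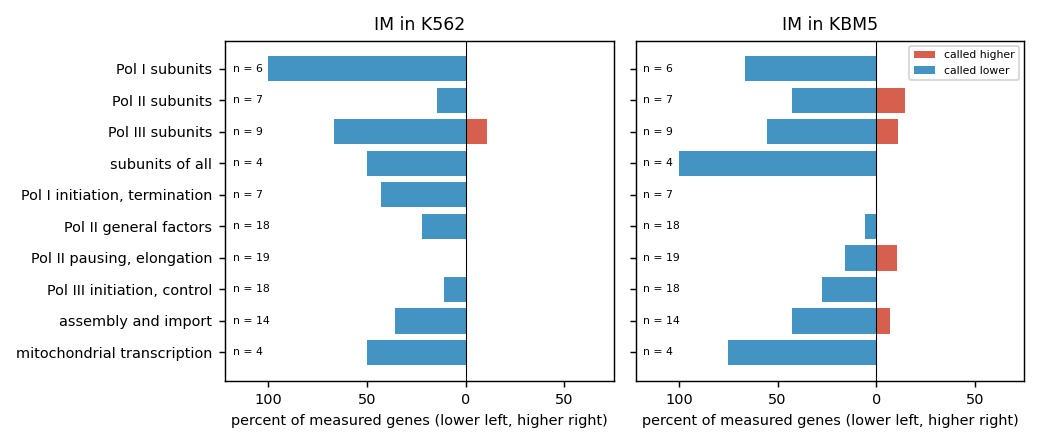
Percent of measured genes called lower (blue, to the left) and higher (red, to the right) with IM in K562 and in KBM5 (horizontal axis) for subunit groups and for lists of related factors (vertical axis), with the number measured beside each bar. All 6 polymerase I subunit genes are called lower in K562 and all 4 subunits common to the enzymes in KBM5.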

How the data were processed

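Expression in 8 samples, 1 per line and treatment, was measured on biotin-labelled arrays, per the labels. The authors deposited a linear intensity for each of 24351 probe sets; for software, summarization and scaling, nothing was given in the sources used. Of these, 17709 had 1 gene symbol in the supplied annotation, 0 had several and 3739 transcript clusters had none, leaving 17687 genes; for 20 genes with several probe sets the brightest represented the gene.

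Log2(value) of the deposited intensity was fitted in limma 3.58.1 (R 4.3.3), over all genes, with Benjamini-Hochberg adjustment. The line plus treatment model had 3 residual and 3.77 prior degrees of freedom, the model per line 2 and 8.31. "At least" folds compare the brighter side with the higher of background and the measured value. The fits were tested on simulated data.

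Members and lists were chosen with earlier results of these data known. All 30 members are accounted for; in pathway lists up to 3 called genes each way were named. Alternatives were quantile normalization, brighter genes alone, trended robust moderation, probe set means, log2(value + 16), other model terms and single arrays left out.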

Additional observations from a re-analysis of the deposited data

Results flagged for a closer look

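POLR2A differed between the lines in its response to IM by -1.36 on the log2 scale (K562 minus KBM5), and POLR2I by 2.56, each by limma's test of the difference itself. The size for POLR2I is not exact, since it was at background with IM in KBM5. Among members above background on all 8 arrays, POLR3C was lower with IM in 2 of 2 K562 pairs and higher in 2 of 2 KBM5 pairs, a difference of -0.97 that was not called in limma (adjusted p = 0.111). POLR3A was higher with OR21 in 2 of 2 K562 pairs and lower in 2 of 2 KBM5 pairs, a difference of 0.77; this difference was not tested. No group had enough arrays to look for a single array far from its group.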

How the results depend on the processing

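Each group has 1 array and the labels give no shared replicate numbers, so arrays were paired by line and treatment alone. With the line left out of the model, the calls for IM in both lines and for the combination against control were 0, also over all named genes. That setting ignores the pairing by line and places the level difference between the lines in the residual. The median difference over all genes for IM in both lines was 0.058 with and without the line. For the combination against control the calls were also 0 with log2(value + 16), where 0 of 17687 genes were called. The cause of that was not tested. The IM difference between lines had 6 calls with trended robust moderation and 1 after quantile normalization, and OR21 in KBM5 had 1 call with trended robust moderation. With 1 array left out, calls ranged from 3 to 9 for IM in both lines, from 4 to 19 in K562, from 10 to 19 in KBM5, from 1 to 2 for the difference between lines, from 0 to 1 for OR21 in KBM5, from 8 to 10 between the lines, and were 0 for the combination. The polymerase I median in K562 was -1.50 with log2(value + 16) and over members above background on all 8 arrays, and -1.23 over all subunits of the enzyme; in KBM5 it was -1.20, -1.12 and -1.12. Of polymerase I, only POLR1A and POLR1H were above background on all 8 arrays. The polymerase II median in K562 was -0.20 after quantile normalization, -0.62 over all subunits and -0.55 over members above background on all arrays, and in KBM5 it reversed to 0.21 over the latter. The polymerase III median in KBM5 was -0.43 over the latter, which for this enzyme were only POLR3A, POLR3C and POLR3D. With 1 array of the line left out, medians ranged from -0.55 to -0.43 for polymerase II in K562, and in KBM5 from -1.35 to -1.21 for polymerase I, from -1.01 to -0.0599 for polymerase II and from -1.01 to -0.92 for polymerase III. Each member called for a comparison kept its direction under every alternative run for it, and the polymerase II median in KBM5 was the exception among the medians. The 1 array per group and the background, reached by 13 of 30 members on at least 1 array, limit what sizes can be given.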
